A study of Mus musculus with 9 samples.

Results

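The genes described here are the ligands and receptors of platelet-derived growth factor (PDGF), a family of 4 ligand genes, Pdgfa, Pdgfb, Pdgfc and Pdgfd, and 2 receptor genes, Pdgfra and Pdgfrb. Every probe set, a group of short probes on the array aimed at 1 transcript, was taken whose platform gene symbol is one of these 6. That gave 14 of the 45101 probe sets of an Affymetrix mouse genome array. Neurospheres, which are free-floating colonies of dividing progenitors, were grown from C57BL/6J mouse embryos of embryonic day 12.5 and used at passage 3. BMP NCSC came from dorsal root ganglia (DRG), the sensory ganglia formed by the neural crest, in a serum-free medium with 20 ng/ml bFGF, 20 ng/ml EGF, heparin, N2 and B27 to which 10 ng/ml BMP4 was added. rNCSC came from DRG in the same medium with no BMP4 named, and SCSC from spinal cord in that medium. Each group had 3 arrays. All 3 groups thus shared bFGF, EGF and strain, and BMP NCSC differed from SCSC in tissue as well as in BMP4.

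PDGF ligands are secreted dimers that bring together a pair of receptor chains, which are tyrosine kinases. PDGF-A and PDGF-C are ligands of the alpha receptor, PDGF-D is mainly a ligand of the beta receptor, and PDGF-B binds both. The A and B chains are trimmed inside the cell by proprotein convertases, whereas the C and D chains leave it in an inactive form and are opened outside it by proteases. In the embryonic spinal cord the alpha receptor marks oligodendrocyte precursors, and the beta receptor is known from pericytes, vascular smooth muscle and other mesenchyme.

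Values are log2 expression values made by the authors with GCRMA, which corrects background by probe sequence and draws unexpressed transcripts together at low values. Array medians lay between 3.99 and 4.03, and 38.7% to 39.9% of probe sets per array reached 5. A probe set was tested when it reached 5 on at least 3 of the 9 arrays, and it was called when limma gave an adjusted p below 0.05, taken over all 19914 probe sets tested, with an absolute log2 difference of at least 1. Nothing in the labels tells if replicate arrays stem from different litters or flasks. The p-values therefore measure only the spread between these arrays, which may be technical, and 3 arrays per group limit the precision. In these pools of cells, fewer cells of a type and less RNA per cell cannot be told apart. The labelled origin was set against marker genes. Olig2 and Fabp7, of central nervous system progenitors, averaged 1.47 and 3.05 in BMP NCSC, 12.10 and 14.44 in rNCSC, and 12.14 and 14.44 in SCSC. Sox2, another progenitor gene, stayed high in all groups, at 12.48 to 12.59 in BMP NCSC, 12.77 to 13.02 in rNCSC and 12.85 to 12.99 in SCSC. Erbb3 and Sox10, of the neural crest, averaged 11.81 and 11.56 in BMP NCSC, 3.08 and 4.14 in rNCSC, and 3.17 and 4.05 in SCSC. Foxd3, another crest gene, was under 5 on every array. The rNCSC arrays, labelled as DRG cultures, thus read near SCSC and not near BMP NCSC for Olig2, Fabp7, Erbb3 and Sox10.

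In BMP NCSC the ligands Pdgfa, Pdgfc and Pdgfd and the receptor Pdgfrb were higher than in rNCSC. By the tested probe sets, the differences of Pdgfd and Pdgfrb were the larger ones. Their probe sets under the filter differed less from rNCSC in means, by 1.15 for Pdgfrb and 0.49 for Pdgfd. Pdgfrb was near the bottom of the scale on all rNCSC and SCSC arrays, and Pdgfd on most of them, with 1 rNCSC array at 7.40 by 1 probe set. Of the 14 probe sets 8 passed the filter, and 7 of these were called higher in BMP NCSC and 0 lower, where 20.6% of all probe sets tested were called higher and 42.4% were called in either direction. The tested Pdgfrb probe set and 1 of Pdgfd passed the filter through BMP NCSC alone, so they had to be higher there to be tested at all. The other tested Pdgfd probe set reached 5 on 4 arrays, only 1 of them outside BMP NCSC, so it too needed the BMP NCSC arrays to be tested. Against SCSC the same 7 probe sets were called higher and 0 lower, with 21.3% of all probe sets tested called higher and 45.1% in either direction. The 2 comparisons share the BMP NCSC arrays. Pdgfra was not called, and Pdgfb was under 5 on every array.

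**Figure D1:**
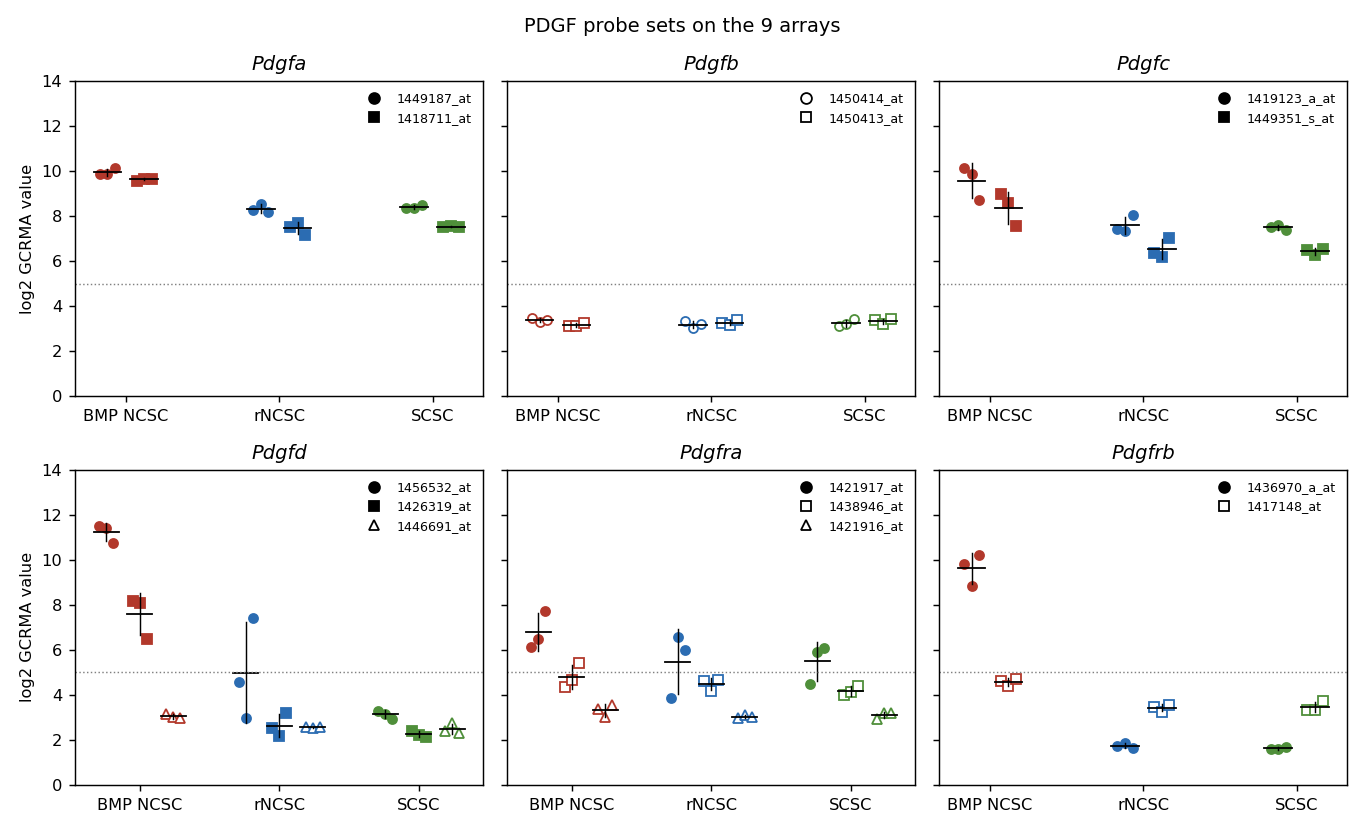
Log2 GCRMA values of the 14 PDGF probe sets on each array, by gene and by group in the order BMP NCSC, rNCSC and SCSC; the bar is the mean and the line the SD of 3 arrays, filled points are tested probe sets, open points those under the filter, and the dotted line is the filter level of 5. The BMP NCSC points of Pdgfa, Pdgfc, Pdgfd and Pdgfrb stand above those of rNCSC and SCSC in every tested probe set, while those of Pdgfra overlap with rNCSC and all points of Pdgfb lie under 5.

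Pdgfa encodes the A chain, a ligand of the alpha receptor. Its probe set 1449187_at read 9.88, 9.86 and 10.13 in BMP NCSC, 8.27, 8.54 and 8.17 in rNCSC, and 8.38, 8.36 and 8.50 in SCSC. The 3 BMP NCSC arrays were all above the other 6. The log2 difference from rNCSC was 1.63 (SE 0.13, limma adjusted p = 4.33e-06), a 3.09-fold higher level, and from SCSC 1.54 (SE 0.13, adjusted p = 5.63e-06). The second probe set, 1418711_at, which the annotation ties to the same source sequence, averaged 9.63 ± 0.046 in BMP NCSC, 7.47 ± 0.28 in rNCSC and 7.53 ± 0.029 in SCSC (SD, n = 3 each). Its differences were 2.17 from rNCSC and 2.10 from SCSC (SE 0.14, limma adjusted p = 1.14e-06 and 1.29e-06).

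Pdgfb encodes the B chain, which binds both receptors. Its probe sets 1450414_at and 1450413_at lay between 3.04 and 3.47 on all 9 arrays, below the filter. No difference was tested for it, and a low reading of this kind gives no order between the groups.

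Pdgfc encodes the C chain, another ligand of the alpha receptor. Probe set 1419123_a_at read 10.14, 9.89 and 8.72 in BMP NCSC, 7.42, 7.33 and 8.03 in rNCSC, and 7.53, 7.59 and 7.37 in SCSC. BMP NCSC did not overlap with either other group, although its replicate 3 lay more than 1 below its other arrays and the rNCSC replicate 3 was the highest of the other 6. The difference was 1.99 from rNCSC (SE 0.35, limma adjusted p = 0.000754), or 3.97-fold, and 2.08 from SCSC (adjusted p = 0.000536). The second probe set, 1449351_s_at, gave 1.85 and 1.94 (SE 0.35, limma adjusted p = 0.00119 and 0.000858), with the same order of arrays within BMP NCSC and within rNCSC.

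Pdgfd encodes the D chain, the ligand that acts mainly through the beta receptor. Probe set 1456532_at read 11.48, 11.42 and 10.76 in BMP NCSC, 4.57, 2.99 and 7.40 in rNCSC, and 3.29, 3.17 and 2.95 in SCSC. The rNCSC arrays were far apart, and their replicate 3 alone reached 5 outside BMP NCSC. The probe set thus needed the BMP NCSC arrays to pass the filter. The difference from rNCSC was 6.23 (SE 0.90, 95% confidence interval 4.17 to 8.30, limma adjusted p = 0.000234). Without rNCSC replicate 3 it was 7.44 (limma adjusted p = 1.85e-06) and without rNCSC replicate 2 it was 5.23 (adjusted p = 0.000292). From SCSC it was 8.09 (SE 0.90, limma adjusted p = 4.15e-05). Probe set 1426319_at averaged 7.58 ± 0.94 in BMP NCSC, 2.63 ± 0.52 in rNCSC and 2.25 ± 0.14 in SCSC (SD, n = 3 each), and its differences were 4.95 from rNCSC and 5.33 from SCSC (SE 0.43, limma adjusted p = 9.44e-06 and 5.5e-06). It passed the filter through BMP NCSC alone. Both means outside BMP NCSC are near the floor, so the sizes depend on the background correction; with all values under 4 set to 4, this probe set differed by 3.58 from each and 1456532_at by 5.90 from rNCSC. The third probe set, 1446691_at, lay between 2.32 and 3.16 on all 9 arrays.

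Pdgfa, Pdgfc and Pdgfd were thus called higher in BMP NCSC by every probe set that passed the filter. Both tested Pdgfd probe sets needed the BMP NCSC arrays to pass, so for that gene the agreement is no support. The 250 bases upstream of an annotated start are printed for these 3 genes because they are the ligands that were called higher. The sequences are those of RefSeq on build GRCm38.p6, given 5′ to 3′ on the strand of the gene. For Pdgfa, which has 2 starts in the table, the one farther upstream is shown. Capitals mark matches on either strand to GGGCGG, the GC box, to TATAAA, the TATA box, and to GGCGCC, a GC-rich motif known from SMAD1 and SMAD5 binding.
Pdgfa (chr5:138994945-138995194, strand -): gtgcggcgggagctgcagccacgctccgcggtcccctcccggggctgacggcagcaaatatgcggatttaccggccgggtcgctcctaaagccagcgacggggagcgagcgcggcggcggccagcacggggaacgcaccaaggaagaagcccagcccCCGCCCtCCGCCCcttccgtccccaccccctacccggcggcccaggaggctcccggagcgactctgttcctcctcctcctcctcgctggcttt
Pdgfc (chr3:81036166-81036415, strand +): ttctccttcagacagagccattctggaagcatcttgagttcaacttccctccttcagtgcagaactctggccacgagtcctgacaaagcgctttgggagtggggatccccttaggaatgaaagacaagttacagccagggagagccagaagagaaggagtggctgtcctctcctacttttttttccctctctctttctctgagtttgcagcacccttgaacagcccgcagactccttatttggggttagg
Pdgfd (chr9:6168236-6168485, strand +): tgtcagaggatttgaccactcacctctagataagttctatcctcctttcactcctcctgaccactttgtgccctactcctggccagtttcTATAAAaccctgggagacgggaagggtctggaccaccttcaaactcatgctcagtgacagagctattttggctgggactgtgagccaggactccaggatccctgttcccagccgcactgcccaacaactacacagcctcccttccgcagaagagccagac
The windows differ in composition, with 72.4% G and C for Pdgfa, 50.8% for Pdgfc and 53.6% for Pdgfd, against a median of 52.4% over 32851 such windows. The Pdgfa window has 2 GC boxes, both on the opposite strand and not overlapping, a motif held by 32.7% of all windows, and the window of its other start has 1. The Pdgfd window has 1 TATAAA, at position -160 counted from the start, and is held by 12.4% of all windows. GGCGCC, held by 9.59% of all windows, is not among these letters in any of the 3, nor is CANNTG, the E-box, held by 66.2%. None of the 4 motifs is in the Pdgfc window. A match is a description of letters and was not set against binding.

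Pdgfra encodes the alpha receptor, to which PDGF-A and PDGF-C bind. Probe set 1421917_at read 6.15, 6.49 and 7.73 in BMP NCSC, 3.86, 6.58 and 6.00 in rNCSC, and 4.47, 5.92 and 6.06 in SCSC. BMP NCSC overlapped with rNCSC and lay just above SCSC. The difference was 1.31 from rNCSC (SE 0.75, 95% confidence interval -0.40 to 3.01, limma adjusted p = 0.141) and 1.30 from SCSC (interval -0.40 to 3.01, adjusted p = 0.141). Without rNCSC replicate 1 the difference from rNCSC was 0.50, and without SCSC replicate 1 that from SCSC was 0.80. Without BMP NCSC replicate 3 the differences were 0.84 from rNCSC and 0.83 from SCSC. Other alternative fits moved it the other way: the range over all of them was 0.50 to 1.86 from rNCSC and 0.80 to 1.62 from SCSC. In the main fit neither was called, and its intervals leave room for no difference as well as for one larger than that of Pdgfa. The spread within groups was unusually wide for this probe set. Its SD was 0.83 in BMP NCSC, 1.44 in rNCSC and 0.88 in SCSC, larger than that of 97.9%, 99.1% and 99.6% of the probe sets tested. The low arrays were replicate 1 of each group. A second probe set, 1438946_at, ran between 3.98 and 5.40 and reached 5 on 1 array, BMP NCSC replicate 3, and the third, 1421916_at, between 2.94 and 3.57; neither was tested.

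In the embryonic cord the alpha receptor marks oligodendrocyte precursors, so their other markers were read beside it. Of 12 such genes 10 were tested, and in BMP NCSC 7 were lower and 2 higher than in rNCSC, where 21.3% and 22.6% of all genes tested were called lower and higher. Olig1 (-11.08) and Olig2 (-10.63), transcription factors of the lineage, were among the lower ones, and the proteoglycan gene Cspg4 (3.62) and Sox10 (7.42) were the higher ones. Of these 10 genes, 6 passed the filter only through rNCSC or SCSC, and Sox10 passed through BMP NCSC alone. The summed level of the list was 13.15 to 13.38 on the log2 scale in BMP NCSC, 14.80 to 15.06 in rNCSC and 14.87 to 14.96 in SCSC, and its part in the Pdgfra values was not tested.

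Pdgfrb encodes the beta receptor, to which PDGF-B and PDGF-D bind. Probe set 1436970_a_at read 9.82, 8.86 and 10.19 in BMP NCSC, 1.71, 1.87 and 1.64 in rNCSC, and 1.60, 1.60 and 1.70 in SCSC. No array of rNCSC or SCSC came within 6 of the lowest BMP NCSC array. The difference from rNCSC was 7.88 (SE 0.29, 95% confidence interval 7.22 to 8.54, limma adjusted p = 4.37e-08). From SCSC it was 7.99 (SE 0.29, limma adjusted p = 3.74e-08). The probe set passed the filter through BMP NCSC alone. With no filter at all the limma adjusted p was 3.61e-08 against rNCSC, and with all values under 4 set to 4 the difference was 5.62. The other probe set, 1417148_at, stayed under the filter, at 4.62, 4.39 and 4.70 in BMP NCSC, 3.46, 3.25 and 3.55 in rNCSC, and 3.35, 3.34 and 3.71 in SCSC. It showed the same order with a far smaller difference in means, 1.15 and 1.10, so the probe sets agree on direction and not on size.

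**Figure D2:**
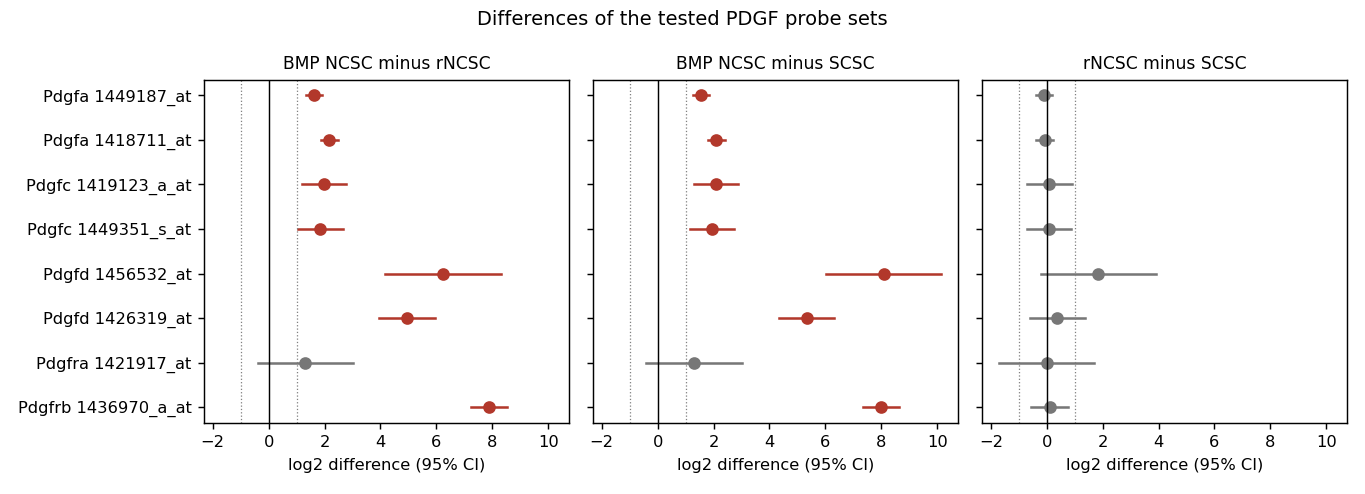
Log2 differences of the 8 tested PDGF probe sets in the 3 comparisons, first-named group minus second, with 95% confidence intervals from limma; red marks a called difference, grey one not called, and the dotted lines the size limit of 1. Pdgfrb and Pdgfd lie farthest right in both comparisons of BMP NCSC, Pdgfra crosses 0 in all 3, and every interval of rNCSC minus SCSC includes 0.

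The beta receptor is used as a marker of pericytes and of fibroblast-like mesenchyme, so those lists were read beside it. Of all genes tested, 22.6% were called higher in BMP NCSC than in rNCSC and 43.9% in either direction. Of 12 pericyte and vascular smooth muscle genes 6 were tested, of which 5 were higher in BMP NCSC than in rNCSC and 1, Notch3 (-1.53), was lower; against SCSC Notch3 was not called (-0.996). The higher ones included Rgs5 (9.71), a regulator of G-protein signalling typical of pericytes, and the smooth muscle genes Tagln (6.13) and Acta2 (5.90). Rgs5 and Tagln, 2 of the 6, passed the filter through BMP NCSC alone and so had to be higher there to be tested. Kcnj8, Abcc9, Anpep, Des, Myh11 and Cnn1, further markers of these cells, were under 5 on every array. The summed level of the list was 13.14 to 14.04 in BMP NCSC, 9.12 to 9.92 in rNCSC and 9.21 to 9.35 in SCSC, all on the log2 scale. Of 12 fibroblast and mesenchyme genes 9 were tested and 9 were higher, 5 of them having passed through BMP NCSC alone. Twist1 and Prrx2 reached 5 outside BMP NCSC only on rNCSC replicate 3, so they too needed the BMP NCSC arrays to be tested. Among the 9 higher genes were Col3a1 (9.53), Col6a1 (9.10) and Dcn (8.31), genes of matrix proteins, while Col1a1, Col1a2 and Twist2 were under 5 on every array. The summed level of that list was 14.84 to 15.16 in BMP NCSC, 7.89 to 8.74 in rNCSC and 7.91 to 8.41 in SCSC. Of 7 endothelial genes only Egfl7 (2.52) was tested, with Pecam1, Cdh5 and Tek under 5 on every array, and all 7 microglia and macrophage genes were under 5 throughout. The part of any such cells in the Pdgfrb and Pdgfd values was not tested.

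The arrays of a group did not deviate alike for all members. Within BMP NCSC, replicate 3 was the lowest array for Pdgfc and for both tested probe sets of Pdgfd, by 1.08 below the group mean for 1426319_at. The same array was the highest for Pdgfrb, 0.57 above the mean, and for Pdgfra, 0.94 above. It was also the highest for the ligand Pdgfa by 1449187_at, 0.18 above, though not by 1418711_at. The smooth muscle genes Acta2 and Tagln were also lowest there, at 10.08 and 7.51 against 12.00 to 12.45 and 10.26 to 10.45 on the other 2 BMP NCSC arrays. The matrix genes Lum and Dcn were lowest on replicate 2, at 7.35 and 9.80, the array on which Pdgfrb was lowest too. Within rNCSC, replicate 3 was the highest array for Pdgfc and Pdgfd. It was also the one at which the mesenchymal transcription factor genes Twist1 and Prrx2 reached 5.48 and 6.84, against 2.64 to 2.75 and 3.07 to 3.90 on the other 2 rNCSC arrays. Fn1, of the same list, was highest on that array too, at 7.48 against 6.14 to 6.70 on the other 2 rNCSC arrays. Prrx1, a relative of Prrx2, went the other way, at 4.46 against 6.54 to 7.26. Thy1, a surface protein gene, read 2.79 against 3.07 to 3.26, too low to give an order. Acta2 read 5.57 to 5.66 and Dcn 2.78 to 2.91 across the 3 rNCSC arrays. With 3 arrays a group these are values side by side, and no relation was tested.

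**Figure D3:**
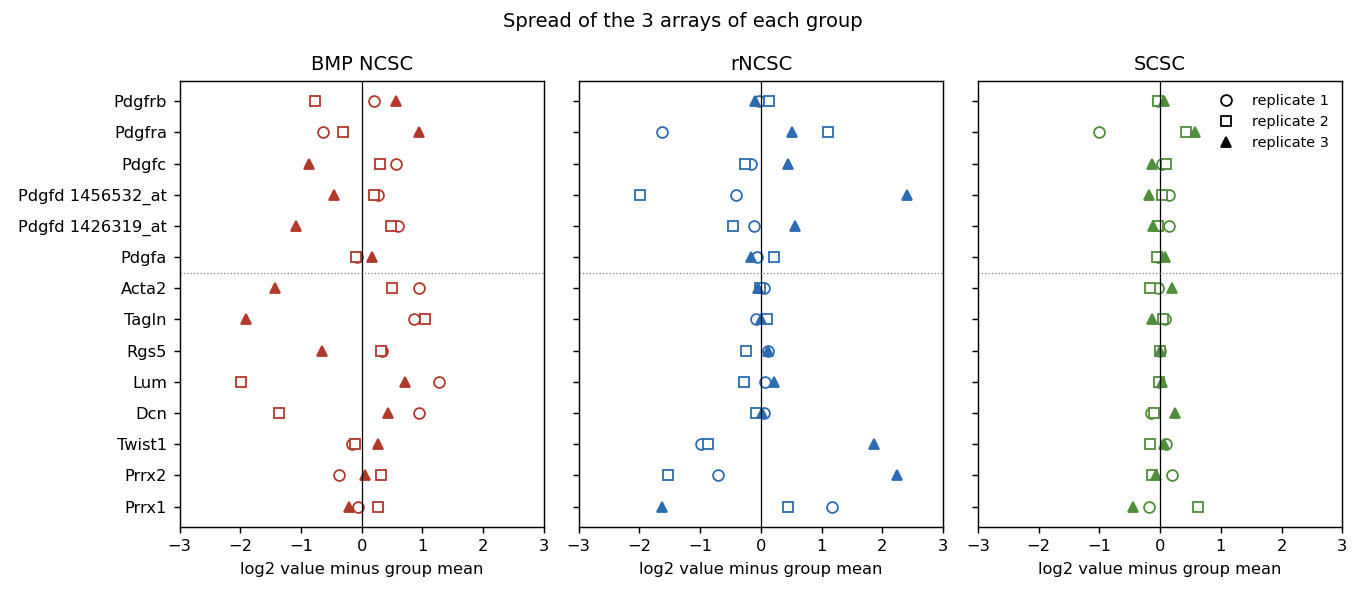
Deviation of each array from its group mean, on the log2 scale, for 6 PDGF probe sets above the dotted line and 8 smooth muscle and mesenchyme genes below it; shapes mark replicates, and replicate 3 is filled. BMP NCSC replicate 3 is lowest for Pdgfc, Pdgfd, Acta2, Tagln and Rgs5 and highest for Pdgfrb, Pdgfra and Pdgfa. The rNCSC replicate 3 is highest for Pdgfc, Pdgfd, Twist1 and Prrx2 and lowest for Prrx1.

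Spheres labelled as from DRG and from spinal cord, both in the medium without BMP4, were compared directly. As the marker genes above were alike in these 2 groups, the comparison is between the labelled groups. None of the 8 tested PDGF probe sets was called by limma, 0 higher and 0 lower, and 0 had an unadjusted p below 0.05, where 0.00502% of all probe sets tested were called and 13% had such a p. The intervals bound the differences unequally. For Pdgfa the difference of rNCSC minus SCSC was -0.09 by 1449187_at, with a 95% confidence interval of -0.37 to 0.20. For Pdgfc it was 0.10 (-0.70 to 0.89) by 1419123_a_at, and for Pdgfrb 0.11 (-0.55 to 0.77) at values near the floor in both groups. For Pdgfra it was -0.01 with an interval of -1.71 to 1.70, so a change of more than 3-fold either way could not be told from none. For Pdgfd it was 1.85 (-0.21 to 3.92, limma adjusted p = 0.422), and 0.65 without rNCSC replicate 3. By level, the order of the groups was BMP NCSC above rNCSC and SCSC for Pdgfa, Pdgfc, Pdgfd and Pdgfrb, with rNCSC and SCSC not separable in any of them, and no separable order for Pdgfra.

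Transcripts for proteins that process PDGF ligands or bind them outside the cell differed in both directions. Of 11 such genes 9 were tested, and 6 were higher and 1 lower in BMP NCSC than in rNCSC, which is 77.8% called, against 43.9% of all genes tested. The median log2 difference was 2.03, with -0.07 over all genes tested. Plat, which encodes tissue plasminogen activator, the protease known to open PDGF-C, was the lower one. It read 7.49, 6.66 and 6.58 in BMP NCSC, 12.42, 11.81 and 12.10 in rNCSC, and 11.89, 12.00 and 12.11 in SCSC, a difference from rNCSC of -5.20 (SE 0.25, limma adjusted p = 2.22e-07). Plau and St14, whose proteases are known to open PDGF-D, were under 5 on every array. Furin, a convertase of the A and B chains, was higher by 2.03 (SE 0.13, limma adjusted p = 1.1e-06) and its relative Pcsk6 by 5.20 (SE 0.32, limma adjusted p = 1.04e-06), while Pcsk7 (0.09) and Pcsk5 (-0.18, with an SD of 2.34 in rNCSC) were not called. Among genes whose proteins bind PDGF or its receptors, the matrix genes Thbs1 and Sparc were higher by 7.84 and 2.03. The cell-surface genes Lrp1, an endocytic receptor, and Nrp1, neuropilin 1, were higher by 3.60 and 2.54. Thbs1 was tested through BMP NCSC alone. The same 7 genes were called in the same direction against SCSC.

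Genes of the signalling steps just below the receptors were mostly not called. Of 37 genes 30 were tested, and the others were not analysed here. In BMP NCSC 5 were higher and 4 lower than in rNCSC, which is 30.0% called, below the 43.9% of all genes, with a median difference of 0.26. The higher ones were Grb10 (4.96), an adaptor of receptor kinases, the adaptor Shc1 (3.60), the kinase Prkca (2.90), and Stat5a (2.89) and Stat3 (1.84), transcription factors that receptor kinases activate. Grb10 ranged from 4.46 to 8.91 within rNCSC and was not called against SCSC (1.69), and Stat5a was tested through BMP NCSC alone. Outside BMP NCSC, Shc1 reached 5 only on rNCSC replicate 3, at 5.13, so it too needed the BMP NCSC arrays to be tested. The lower ones were Fyn (-3.59), a Src-family kinase that binds the receptors, the GTPase Nras (-1.61), and the adaptors Gab1 (-1.23) and Crkl (-1.21). Src (0.12), Plcg1 (-0.20), Grb2 (0.34), Ptpn11 (0.17) and Pik3r1 (-0.56), whose proteins dock on the activated receptors, were not called. Of these, Grb2 and Pik3r1 missed the call by size alone (limma adjusted p = 0.00894 and 0.00194).

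Among 20 genes that restrain the receptors 18 were tested, of which 5 were higher and 3 lower in BMP NCSC than in rNCSC, or 44.4% against 43.9% of all genes. Cav1 (5.57), the caveolin of membrane pits that hold receptors, Socs3 (5.10), a feedback inhibitor of cytokine signalling, and the phosphatase genes Ptprj (2.75) and Ptpn2 (1.59) were higher, as was the adaptor Dok1 (1.92). Dok1 passed the filter through BMP NCSC alone and so had to be higher there to be tested. Lrig1 (-3.87), a membrane protein that lowers receptor levels, Slc9a3r1 (-2.48), a scaffold that binds the beta receptor, and Spry2 (-1.10), an inhibitor of the Ras pathway, were lower. The ubiquitin ligase gene Cbl, at -0.94, missed the call by size alone (limma adjusted p = 0.000178).

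Early response genes, which many growth factors and also the handling of cells can induce, were higher for 10 of 17 tested and lower for 3, or 76.5% against 43.9% of all genes. Klf4 (6.14), Cxcl1 (6.05), Fos (4.62) and Egr3 (4.44) were the higher ones with the greatest differences, while Klf10 (-3.48), Myc (-2.89) and Dusp6 (-1.27) were lower. Egr1 (0.61) and Jun (-0.72) missed the call by size alone (limma adjusted p = 0.0103 and 0.00569). Fosb, Junb, Atf3 and Cxcl1, 4 of the 10 higher ones, passed the filter through BMP NCSC alone. They had to be higher there to be tested. Cxcl1, named KC when it was found as a gene that PDGF induces in mouse fibroblasts, read 7.89, 7.68 and 11.20 in BMP NCSC and between 2.81 and 2.96 in rNCSC. Over the 4 pathway lists, 26 of 74 tested genes were higher and 11 lower, which is 50% called, with a median difference of 0.44. Against SCSC the counts were also 26 and 11, where 46.9% of all genes tested were called, and 36 genes had the same call in both comparisons. Between rNCSC and SCSC limma called 0 of the 74, with 11 at an unadjusted p below 0.05, where 0.00969% of all genes tested were called and 13.1% had such a p.

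**Figure D4:**
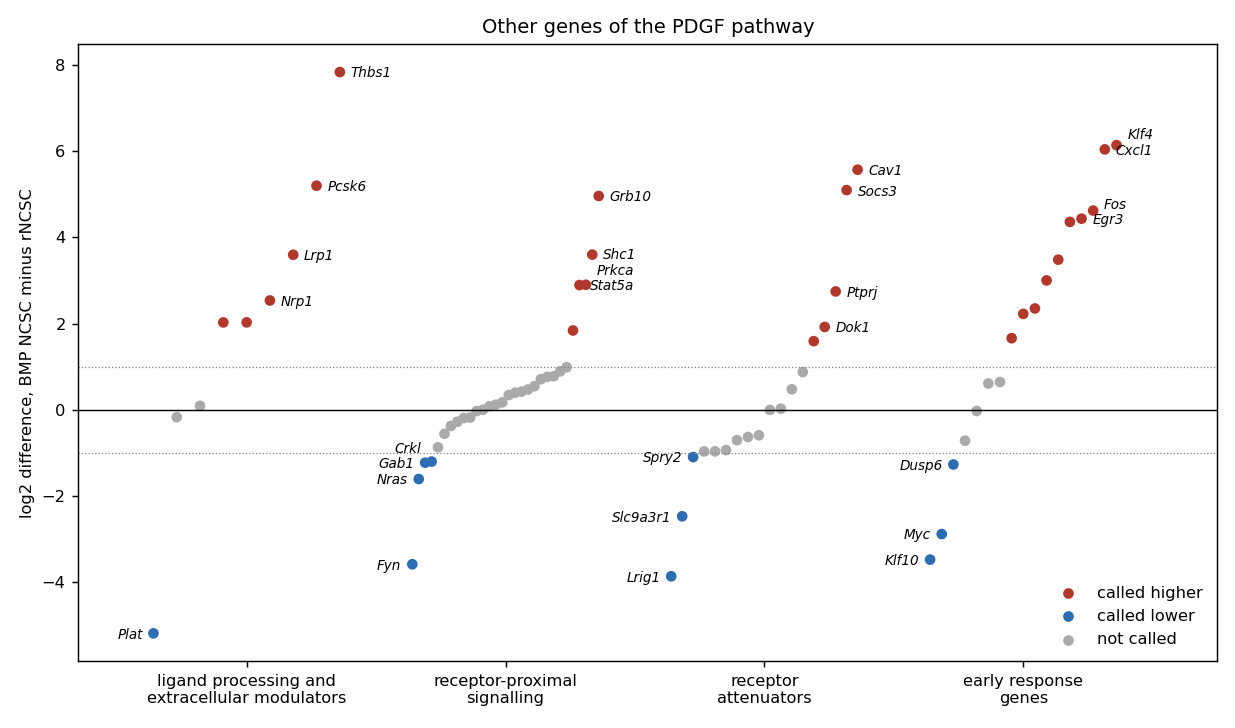
Log2 difference of BMP NCSC minus rNCSC for each of the 74 tested genes of the 4 PDGF pathway lists, sorted within its list; red is called higher, blue called lower, grey not called, dotted lines mark the size limit of 1, and up to 4 called genes are named each way. The ligand processing list has Plat as its 1 lower gene, the receptor-proximal list lies mostly between the dotted lines, and the early response genes lie mostly above them.

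For each member the genes with the most similar profile were found as those with the smallest root mean square distance of log2 values over the 9 arrays, each gene centred on its mean. Pdgfrb was closest to Fgf7, a growth factor gene of mesenchyme (distance 0.14), Osmr, a cytokine receptor gene (0.21), and Meg3, a non-coding RNA gene (0.27). Pdgfd was closest to S100b, a calcium-binding protein gene of glia (0.57), Bmp5, a bone morphogenetic protein gene (0.57), and Pgm5 (0.61). Pdgfc was closest to Gli2, a hedgehog effector gene (0.19), Man2a1 (0.19) and Ebf4 (0.23), and Pdgfa to Ikzf4 (0.0981), Mef2d (0.0988) and Sik1 (0.102). Pdgfra was closest to Vat1l (0.57), Dlgap1 (0.62) and Gdap1 (0.63). Pearson's r was at least 0.985 for the neighbours of the other 4 members and between 0.814 and 0.856 for those of Pdgfra, as a description over 9 arrays that share their 3 groups. Distances scale with the size of a gene's change, so they are not compared between members.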

How the data were processed

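The 9 arrays (3 groups of 3, by title) were each hybridised with biotinylated cRNA, per the labels' protocols. The authors deposited 1 log2 value for each probe set and array. The submitters' processing notes name GCRMA, with no version in the sources used here. GCRMA makes the distributions of the arrays alike, so a change in total RNA per cell would not show, and sizes from means under 4 are uncertain.

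Of 45101 probe sets 64 were controls. The platform annotation supplied gave 34945 others 1 symbol and 932 several, which were left out of gene counts; symbols were updated through the gene table of GRCm38.p6. A gene was represented by its probe set with the highest mean (18193 genes, 10319 tested), so other probe sets of a gene may disagree. limma 3.58.1 in R 4.3.3 fitted group means over all 9 arrays to the 19914 probe sets past the filter (6 residual degrees of freedom, to which the prior added 2.51). Its p-values are two-sided and were adjusted by Benjamini-Hochberg over all of them. Differences are first-named minus second group. The steps were tested on simulated data. Members and gene lists were chosen with earlier results of these data known. Named genes are all members, up to 4 called genes per list and direction by size, cell type markers and the 3 nearest profiles per member; further list genes were named after their values were seen. Alternatives varied the arrays fitted, block, filter, unit, normalization, floor, variance model and call rule, and left out each array. Of 14 probe sets, all are accounted for; the promoter table gave 4 of the 5 genes looked up, and Pdgfb and Pdgfrb have no sequence here.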

Additional observations from a re-analysis of the deposited data

How the results depend on the processing

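Each tested member kept its call in every alternative run in which its probe set was fitted, except Pdgfra: with the replicate block it was called higher, at 1.31 against rNCSC (limma adjusted p = 0.0253) and 1.30 against SCSC (adjusted p = 0.0252). Deviations from group means correlated between same-numbered arrays by 0.05 to 0.35, not above 0.1 for each pair, and 16 of 18 arrays and groups matched best by number, a hint from the data; the labels tie the numbers to nothing. PDGF probe sets called were 7 in both comparisons with BMP NCSC under each array left out, and 4 with 1 probe set per gene, since only 5 are then in the fit. With no filter, Pdgfrb 1417148_at was also called, at 1.15 and 1.10 (limma adjusted p = 8.8e-05 and 0.000106). All probe sets called against rNCSC and SCSC were 4532 and 4839 with 1 per gene and 14916 and 15265 with no size limit, in place of 8435 and 8988, and 8316 to 8648 and 8848 to 9059 with an array left out. Pathway genes called were 60 and 58 with no size limit in place of 37, and 37 to 39 and 36 to 39 with an array left out. Between rNCSC and SCSC, 1 probe set was called; it was 0 with only the 6 arrays, the replicate block, limma-trend or an adjusted p under 0.01, 16 with array weights, and 0 to 83 with an array left out, the 83 without rNCSC replicate 2, when 1 pathway gene (0 to 1) was called, Grb10 (-4.36). PDGF probe sets called there were 0 throughout. Signal near background limits the size of the Pdgfd and Pdgfrb differences.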

Other observations

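Relatives of the PDGF family also differed between the groups. Of 15 genes of the VEGF family, of the receptors related to the PDGF receptors and of their ligands, 14 had a value and 8 were tested. In BMP NCSC 4 were higher than in rNCSC and 1 was lower, or 62.5% called against 43.9% of all genes. Vegfd and Pgf, 2 of the 8, passed the filter through BMP NCSC alone and so had to be higher there to be tested. Outside BMP NCSC, Vegfc reached 5 only in rNCSC, at 5.81 and 7.63, so it too needed BMP NCSC arrays to pass. Vegfd, which like Vegfc encodes a lymphatic growth factor, averaged 6.75 ± 1.29 in BMP NCSC and 2.34 ± 0.046 in rNCSC (SD, n = 3 each; difference 4.41, limma adjusted p = 6.5e-05). Csf1 (3.54), a growth factor gene of macrophages, Pgf (3.17), placental growth factor, and Vegfc (2.70) were the other higher ones, and Vegfb (-2.49) was lower. Vegfa was at 0.93 and not called against rNCSC but called higher against SCSC (2.07); the difference between these results was not tested. The receptor genes Flt1, Kdr, Flt4, Csf1r and Flt3 were under 5 on every array.

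Pdgfrl, a gene named for the likeness of its protein to the PDGF receptors and chosen here after its values were seen, averaged 10.44 ± 0.32 in BMP NCSC, 3.70 ± 0.19 in rNCSC and 3.42 ± 0.076 in SCSC (SD, n = 3 each). It passed the filter through BMP NCSC alone, and the means of both other groups were under 4, where sizes of differences are uncertain.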
